A study of Homo sapiens with 6 samples.

Results

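Transcripts of the translation initiation factor eIF3 were followed in MOLM-13 cells, an established human line of acute myeloid leukaemia with monocytic features, treated with UC-764864 or with DMSO. The genes described are EIF3A, EIF3B, EIF3C, EIF3CL, EIF3D, EIF3E, EIF3G, EIF3H, EIF3I and EIF3L, 10 of the 56638 rows of the deposited count table, picked by symbol. All 10 passed the filter on low counts and were among the 13490 genes tested. EIF3F, EIF3J, EIF3K and EIF3M, the other 4 subunit genes of the complex, were also tested and are shown beside them. The 10 genes were chosen with results of the same comparison known, so their values are given as a description, and a gene among them that passed the threshold is no separate evidence. The series title names UBE2N, which conjugates ubiquitin to other proteins, as the enzyme that UC-764864 inhibits. Cells received 2 µM of it for 24 h, or the solvent DMSO, and both groups were grown in the same serum-supplemented medium. Libraries UDI0051, UDI0052 and UDI0053 are from UC-764864 and UDI0054, UDI0055 and UDI0056 from DMSO. Nothing in the labels ties the 3 libraries of a treatment to cultures grown apart. The spread that p-values rest on may therefore be technical.

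eIF3 is the largest of the initiation factors. It binds the small ribosomal subunit, helps to bring the initiator tRNA and the mRNA to it, and keeps the ribosomal subunits apart until a start codon is found. Its scaffold is a ring of proteins with PCI or MPN domains, among them the products of EIF3A, EIF3C, EIF3E, EIF3F, EIF3H, EIF3K, EIF3L and EIF3M. The products of EIF3B, EIF3G and EIF3I form a mobile module on the other face of the ribosome, the product of EIF3D can bind the mRNA cap, and the product of EIF3J is loosely attached. Leukaemia cells, like other dividing cells, express all of these genes.

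The 10 genes lie on chromosomes 1 (EIF3I), 7 (EIF3B), 8 (EIF3E and EIF3H), 10 (EIF3A), 16 (EIF3C and EIF3CL), 19 (EIF3G) and 22 (EIF3D and EIF3L). EIF3CL is a near-identical copy of EIF3C on the same chromosome, and the sequences show how little separates the pair. In GENCODE release 29 (GRCh38) the coding sequence of transcript EIF3C-201 has 2742 bases and that of EIF3CL-201 has 2745. They align with 0 mismatched bases and 1 gap of 3 bases, which lies in a run of GAG codons, so that its exact place in the run is a convention of the alignment. The 75 bases of EIF3CL around that gap and the 72 matching bases of EIF3C are shown because they hold the whole coding difference, and capitals mark the 3 extra bases (EIF3CL coding bases 871 to 873).
EIF3C: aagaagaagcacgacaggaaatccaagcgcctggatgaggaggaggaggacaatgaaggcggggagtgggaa
EIF3CL: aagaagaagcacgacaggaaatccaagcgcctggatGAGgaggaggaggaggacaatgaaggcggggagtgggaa
Reads of this study are 75 bases long. Of the 3071 stretches of 75 bases in EIF3C-201, 2948 (96%) also occur in a transcript of EIF3CL. Of the rest, 60 span the gap and 63 begin in the first 63 bases of the transcript, upstream of the part it shares with EIF3CL-201. Of the stretches of EIF3CL-201, 97.9% occur in EIF3C. Over stretches of 200 bases, a length chosen to stand for a read pair, the shares were 91.6% and 93.5%. No stretch of 75 bases in EIF3A, EIF3B, EIF3D or EIF3H occurs in another gene of that release. The share was 0.145% for EIF3I, 3.79% for EIF3G, 13.5% for EIF3E and 36.1% for EIF3L, the last through AL022311.1 and EIF3LP2. The files were made on GRCh37, and how reads with more than 1 placement were counted is not given in the sources used here.

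Total counts ranged from 16136156 to 25014437 per library. In UDI0055, 3799 rows stand at 0 in 2 unbroken runs where the other libraries have counts. Tests used the 52839 rows that all libraries hold, which include every eIF3 gene. UDI0052 and UDI0056 had the smallest share of counts in genes of at least 60% GC, 9.71% and 9.92%, against 11.8% to 13.6% in the others. All 10 markers of the myeloid line, among them CD33, MPO, FLT3 and LYZ, were at 1 CPM or more in every library. Their summed level was 6543 to 7575 CPM with UC-764864 and 4350 to 4685 CPM with DMSO, mostly LYZ, and the part of this difference in the results was not tested. T cell, B cell and stromal markers each summed to at most 2.86 CPM, and CD2 and MS4A1 were listed at 0. The epithelial list, through KRT18 and KRT8, summed to 16.5 to 19.9 CPM. CPM, the unit of all levels given, is the read count relative to the library size after TMM scaling, and a count of 3 corresponded to 0.123 to 0.198 CPM.

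Of the 10 genes, 5 were higher with UC-764864 at an adjusted p under 0.05 (EIF3A, EIF3B, EIF3C, EIF3CL and EIF3I), where 5.11% of all tested genes were. EIF3E alone was lower, where 8.13% of all tested genes were, and EIF3D, EIF3G, EIF3H and EIF3L did not pass (edgeR quasi-likelihood test, Benjamini-Hochberg over all genes). A log2 fold change above 0 was found for 9 of the 10, against 51.3% of all tested genes, and the median of the 10 was 0.36, against 0.01 over all genes. For 7 of the 10, every UC-764864 library lay above every DMSO library, which held for 19% of all tested genes. The reverse held for 0 of the 10, against 17% of all tested genes. EIF3C and EIF3CL, whose reads can be split by the counting, stand as separate genes in these counts and in the median. With their counts summed, 4 were called higher, the summed pair among them, and 1 lower. The other counts and the median are not given for the summed pair. With each library's GC trend removed, 58.8% of all calls were rises, against 40.1% of calls on the same genes without it.

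**Figure D1:**
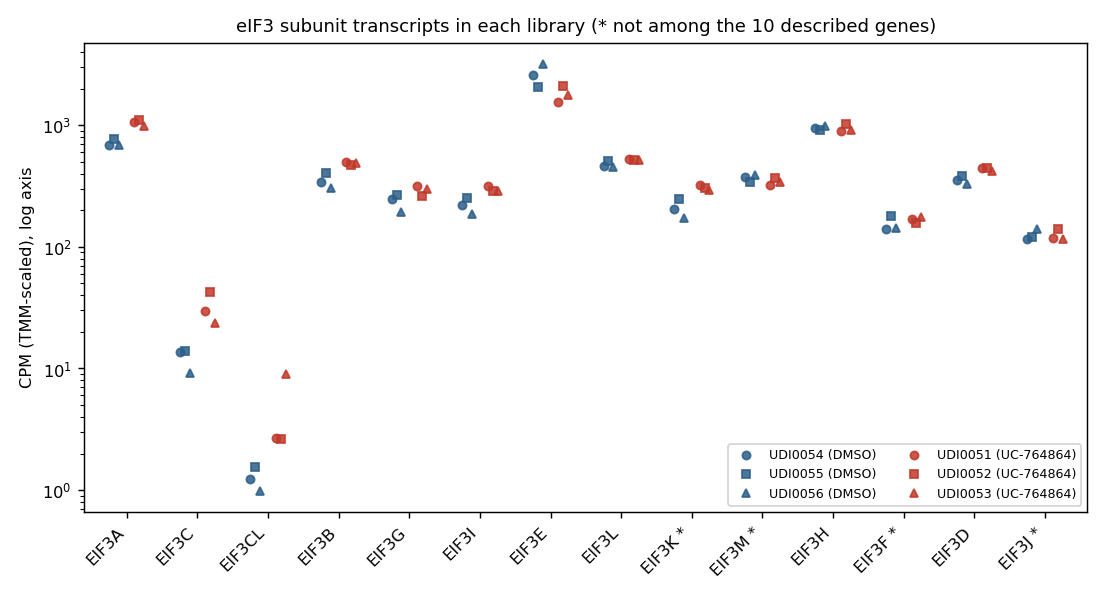
CPM of the 14 eIF3 genes in each library on a log axis, with 1 symbol per library, DMSO in blue and UC-764864 in red. EIF3C and EIF3CL lie far below the other subunits, and the DMSO symbols of EIF3E lie mostly above its UC-764864 symbols.

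EIF3A encodes the largest subunit, a scaffold of the ring. Its level was 1054, 1112 and 982 CPM in UDI0051, UDI0052 and UDI0053, and 684, 768 and 684 CPM in UDI0054, UDI0055 and UDI0056. Every UC-764864 library lay above every DMSO library. The means were 1050 ± 65.0 and 712 ± 48.8 CPM (SD, n = 3 per group), a log2 fold change of 0.56 ± 0.11 (SE). EIF3A did not pass without UDI0051, though its log2 fold change was then 0.56. Leaving out 1 library at a time gave 0.49 to 0.62.

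EIF3C encodes the subunit that pairs with the EIF3A product at the centre of the ring and contacts early initiation factors. Its counts were 663, 659 and 446 in the UC-764864 libraries, or 29.9, 42.7 and 23.5 CPM. In the DMSO libraries they were 309, 343 and 139, or 13.7, 14.03 and 9.16 CPM. The groups did not overlap, and UDI0052 was the highest and UDI0056 the lowest library. The log2 fold change was 1.37 ± 0.22, or 2.58-fold, and without UDI0052 and UDI0056 together it was 0.92. EIF3C passed in each of the 6 fits that left out 1 library, with log2 fold changes of 1.08 to 1.55.

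EIF3CL had 60, 41 and 170 counts in the UC-764864 libraries and 28, 38 and 15 in the DMSO libraries, which is 2.70, 2.65 and 8.95 CPM against 1.24, 1.55 and 0.988 CPM. UDI0053 stood far above the other 5 libraries. The log2 fold change was 1.89 ± 0.45, and 1.06 without UDI0053. EIF3CL did not pass without UDI0054.

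Because reads of the pair can be split by the counting, both rows were also summed. The sum was 723, 700 and 616 counts with UC-764864 and 337, 381 and 154 with DMSO, or 36.8 ± 7.40 and 13.5 ± 2.96 CPM. Its log2 fold change was 1.43 in the fit over all genes. It ranged from 1.07 without UDI0052 and UDI0056 to 1.54 without UDI0055. EIF3CL held 8.30%, 5.86% and 27.6% of the pair's counts in UDI0051, UDI0052 and UDI0053. In UDI0054, UDI0055 and UDI0056 it held 8.31%, 9.97% and 9.74%. The exact 95% interval was 24.1% to 31.3% in UDI0053, above that of every other library, of which the highest reached 15.6% (counting error only). Without UDI0053 the difference in mean share turned from 4.58 to −2.26 percentage points. UDI0053 was also the UC-764864 library with the lowest EIF3C level. The cause of this split was not tested.

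**Figure D2:**
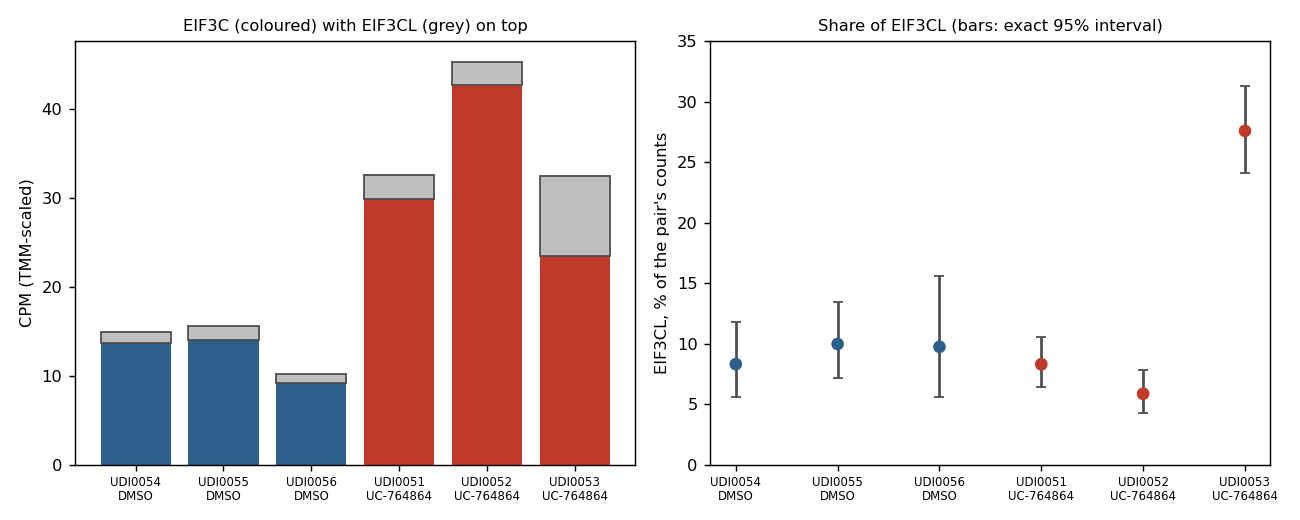
Left, CPM of EIF3C (coloured) with EIF3CL (grey) stacked on it in each library; right, EIF3CL as a percentage of the counts of the pair with exact 95% intervals. The stacked bars of UC-764864 lie above all DMSO bars, and the share in UDI0053 (27.6%) lies apart from the other 5 libraries.

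Levels of different genes were compared per kb of coding sequence. This length leaves out the untranslated parts of a transcript, whose size differs between genes. EIF3H has 1059 coding bases in a transcript of 3959, EIF3M 1125 in 5051, EIF3J 777 in 2569 and EIF3B 2445 in 3055. The ranks and ratios below hold for coding length only, and levels per kb of whole transcript are not given. With DMSO, EIF3C stood at 4.48 ± 0.989 and EIF3CL at 0.459 ± 0.103 CPM per kb. The lowest other subunit, EIF3B, stood at 143 ± 20.3 CPM per kb, 31.9 times the value of EIF3C. With UC-764864 the lowest other subunit was EIF3F, at 13.4 times the value of EIF3C (157 ± 9.06 against 11.7 ± 3.56 CPM per kb). The proteins are known to join the complex in equal numbers. RNA levels of the other subunits were not equal either, from 143 (EIF3B) to 1953 CPM per kb (EIF3E) with DMSO. Whether the low level of the pair is tied to the share of its sequence that both copies hold was not tested. What part of its reads was counted cannot be seen in the counts. A change in the counted reads of EIF3C need not be the change in all its transcripts.

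By coding length, EIF3E stood at the top with DMSO, at 1953 ± 420 CPM per kb, followed by EIF3H at 891 ± 28.9. On this measure they were apart from each other and from the rest. The places of EIF3H and EIF3M depend on the length used, since most of their transcripts is not coding. EIF3M, EIF3K, EIF3L, EIF3G, EIF3I and EIF3D followed from 326 ± 22.8 down to 216 ± 16.8, and each overlapped with the next. EIF3A (172 ± 11.8), EIF3J (161 ± 16.2), EIF3F (143 ± 19.4) and EIF3B formed a lower set whose neighbours also overlapped. With UC-764864, EIF3E and EIF3H remained first and second by coding length, at 1345 ± 211 and 892 ± 70.6.

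EIF3B encodes the scaffold of the mobile module. It was at 501, 471 and 484 CPM with UC-764864 and 343, 402 and 303 CPM with DMSO, with no overlap. Its log2 fold change was 0.47 ± 0.12. It passed without UDI0055 (0.59), but in none of the 5 fits without another library. EIF3I encodes a WD-repeat protein bound to the EIF3B product. Its level was 313, 288 and 287 against 222, 252 and 187 CPM, again without overlap, with a log2 fold change of 0.43 ± 0.13. EIF3I likewise passed without UDI0055 and in none of the other 5 such fits. EIF3G encodes the RNA-binding protein of the module. Its values of 314, 262 and 297 CPM overlapped with 249, 267 and 195 CPM, and its log2 fold change of 0.30 ± 0.13 did not pass. UDI0056 was the lowest library for each of the 3 genes.

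EIF3E, also known as INT6, encodes a ring subunit that contacts the mRNA side of the ribosome. It was at 1537, 2098 and 1765 CPM with UC-764864 and at 2602, 2056 and 3180 CPM with DMSO. The groups overlapped, because UDI0052 lay just above UDI0055. The log2 fold change was −0.54 ± 0.16, and it ranged from −0.69 without UDI0052 to −0.37 without UDI0056. EIF3E did not pass without UDI0051, UDI0053, UDI0054 or UDI0056. It was −0.21 and did not pass with the GC trend removed.

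Set against EIF3A in the same library, a ratio that needs no scaling, EIF3E had 1.46, 1.89 and 1.80 counts per EIF3A count with UC-764864. With DMSO it had 3.80, 2.68 and 4.65, and the groups did not overlap. EIF3H had 0.842, 0.925 and 0.932 counts per EIF3A count against 1.37, 1.19 and 1.43, and EIF3L 0.501, 0.469 and 0.530 against 0.669, 0.665 and 0.657. EIF3B, by contrast, overlapped between the groups, at 0.464 ± 0.0361 and 0.489 ± 0.0409 counts per EIF3A count. EIF3A was itself called higher, which lowers ratios to it with UC-764864. EIF3G per EIF3I count, within 1 module, did not overlap, at 0.982 ± 0.0652 with UC-764864 and 1.07 ± 0.0404 with DMSO. How often pairs of other genes do not overlap was not counted. These pairs were chosen after the values were seen.

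EIF3H encodes an MPN subunit. It was at 888, 1029 and 916 CPM with UC-764864 and 939, 915 and 976 CPM with DMSO, so the groups overlapped. Its log2 fold change was 0.00 ± 0.10. EIF3L encodes a ring subunit beside the EIF3E product. Its levels of 528, 521 and 521 CPM lay above 458, 511 and 449 CPM without overlap, though UDI0055 came close, and its log2 fold change of 0.15 ± 0.10 did not pass. EIF3D, the cap-binding subunit, was at 447, 445 and 421 against 353, 385 and 330 CPM. These groups did not overlap either, and the log2 fold change of 0.30 ± 0.11 did not pass.

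Of the 4 subunits that were not among the 10 chosen, 1 rose and 0 fell by edgeR (1 had an unadjusted p under 0.05 in either direction, and DESeq2 called 1). Of all tested genes, 5.11% rose and 8.13% fell. The median log2 fold change of the 4 was 0.06, against 0.01 over all genes and 0.36 for the 10. EIF3K, which sits at the tip of the arm with EIF3L, was at 325, 302 and 295 CPM with UC-764864 and 205, 248 and 173 CPM with DMSO. It rose 1.47-fold, a log2 fold change of 0.56 ± 0.14 (edgeR adjusted p = 0.0228), and the groups did not overlap. Leaving out UDI0051, UDI0053 or UDI0054 ended this call (adjusted p = 0.105, 0.0643 and 0.0891, in a range of 0.00403 to 0.105 over the 6 such fits). The log2 fold change of EIF3F, an MPN subunit, was 0.13 ± 0.12 (adjusted p = 0.508). That of EIF3J was 0.00 ± 0.12 (adjusted p = 0.998), and that of EIF3M, a PCI subunit, −0.09 ± 0.11 (adjusted p = 0.587).

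**Figure D3:**
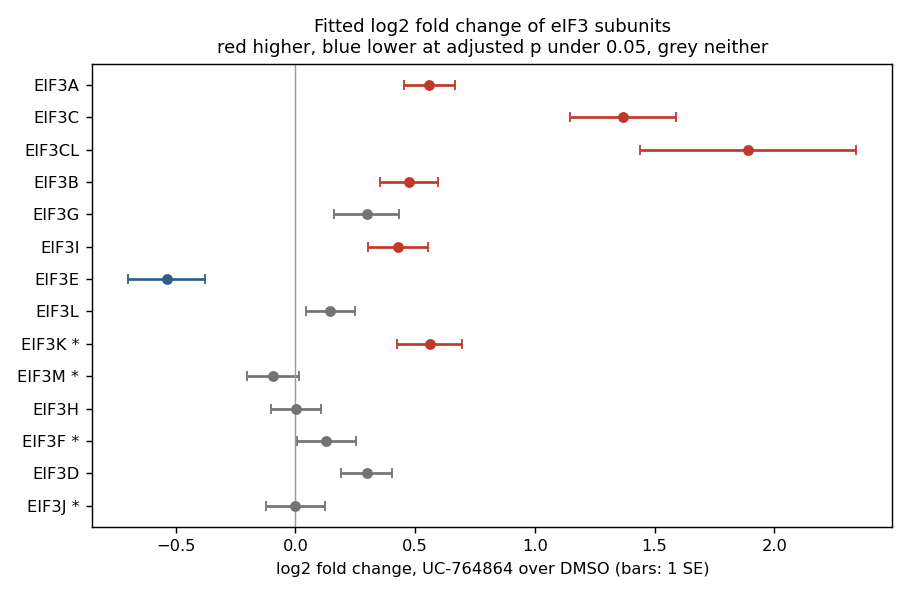
Log2 fold change of UC-764864 over DMSO for each eIF3 gene with its SE, an asterisk marking the 4 genes outside the 10 described. Red points (EIF3A, EIF3C, EIF3CL, EIF3B, EIF3I, EIF3K) and the blue point (EIF3E) had an adjusted p under 0.05.

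Subunits also differed among libraries of the same treatment, and their base composition is given beside this. EIF3M, EIF3E, EIF3J and EIF3H, the 4 genes whose transcript has under 41% GC (38.0% to 40.2%), were all highest in UDI0056 among the DMSO libraries. All 4 were also highest in UDI0052 among the UC-764864 libraries. Of the other 10 genes (43.2% to 60.3% GC), 9 were lowest in UDI0056 among the DMSO libraries. Among the UC-764864 libraries, 4 of these 10 were lowest in UDI0052 and 2, EIF3A and EIF3C, were highest in it. The cut of 41% is not among the planned settings and falls in a gap among these same genes, between EIF3H (40.2%) and EIF3A (43.2%). The share of all tested genes with such a pattern was not counted. UDI0052 and UDI0056 are the libraries with the smallest GC-rich share. With the GC trend of each library removed, EIF3M turned to 0.23 (adjusted p = 0.0442) and EIF3J went to 0.28 (adjusted p = 0.00908), EIF3H went to 0.19 and EIF3G, at 0.29, passed. The part of base composition in the differences between treatments was not tested otherwise.

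**Figure D4:**
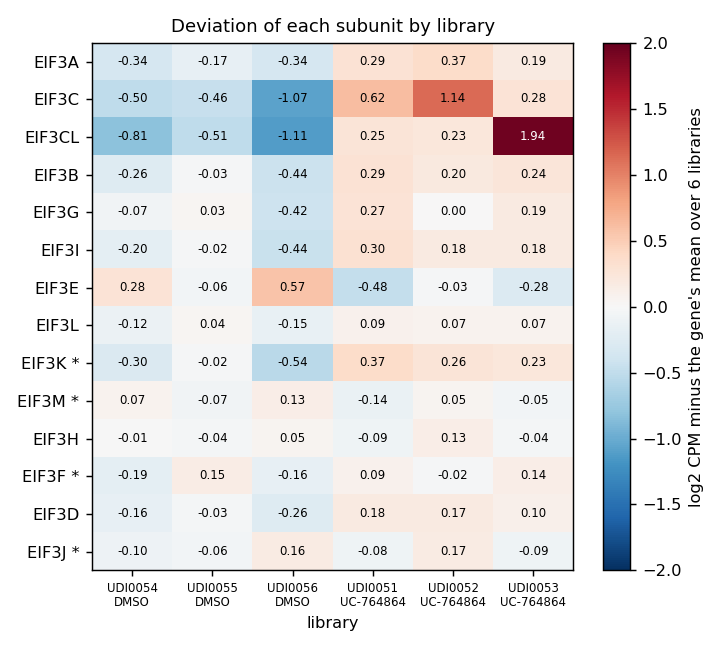
Log2 CPM of each eIF3 gene in each library minus the gene's mean over the 6 libraries, printed in the cells. The cells of UDI0056 are below 0 for EIF3A, EIF3B, EIF3G and EIF3I and above 0 for EIF3E, and the EIF3CL cell of UDI0053 is the highest of all.

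Another 12 rows of the table have symbols that begin with EIF3, nearly all of them pseudogenes. Of these, 3 were at 0 in every library and 4 were tested. EIF3FP3, a copy of EIF3F and the 1 row of these that reached a mean of 5 CPM, was at 26.0 ± 3.12 CPM with UC-764864 and 22.0 ± 2.76 CPM with DMSO and did not pass (log2 fold change 0.24 ± 0.14, adjusted p = 0.272). It shares sequence with EIF3F, of whose stretches of 75 bases 35.4% occur in it.

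The genes most like EIF3C in pattern were sought among 9877 others with a mean of at least 5 CPM, by the root mean square difference of log2 CPM over the 6 libraries after centring. They were HNRNPA3P5 (0.19), HNRNPA1P10 (0.21), RPS10 (0.22), MMP2 (0.31) and ZNF778 (0.31). EIF3CL, which lies under 5 CPM, differed by 0.80. HNRNPA3P5 and HNRNPA1P10 are pseudogenes of splicing regulators, RPS10 encodes a ribosomal protein, MMP2 a gelatinase and ZNF778 a zinc finger protein. RPS10 was at 25.6, 26.3 and 22.0 CPM with UC-764864 and 12.7, 10.5 and 8.24 CPM with DMSO. Of the stretches of 75 bases in RPS10, 81.4% occur in another gene, as do 77.9% of those in HNRNPA1P10 and 22.5% in HNRNPA3P5, but 2.78% in MMP2 and 2.33% in ZNF778. Sequence sharing was measured for 11629 tested genes. Of the 163 genes with at least 90% shared, 13 were called higher (7.98%), EIF3C and EIF3CL among them, and 5 lower (3.07%). Of the 531 genes with 50% to 90% shared, 6.03% were called higher and 3.77% lower. Of the 10935 genes under 50%, 5.43% were called higher and 8.76% lower, and of all 11629 genes 5.49% and 8.45%. A rise of at least 2-fold was found for 4 of the 163 (2.45%), EIF3C and EIF3CL among them. It was found for 3 of the 531 genes with 50% to 90% shared (0.565%). It was found for 0.293% of the genes under 50% and 0.335% of all 11629. EIF3C and EIF3CL were chosen with their rise known, so their part in these counts is no evidence on sharing. The part of sequence sharing in these rises was not tested.

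Genes beside the pair on chromosome 16 were taken as a list of 14, of which 8 were tested, and 0 passed in either direction (edgeR; 3 had an unadjusted p under 0.05, and DESeq2 called 1). Their median log2 fold change was 0.19, against 0.01 over all genes. TUFM, a mitochondrial elongation factor with the smallest p of them, was at 437 ± 35.3 CPM with UC-764864 and 326 ± 61.7 CPM with DMSO (0.42 ± 0.14, adjusted p = 0.0667).

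The other translation factors were taken from 8 lists with 53 genes, of which 49 were tested. Of these, 8 rose and 2 fell at an adjusted p under 0.05, where 5.11% of all tested genes rose and 8.13% fell. Their median log2 fold change was 0.18, against 0.01 over all genes. The same shares and median over all genes stand beside each list below. EIF5B, the GTPase that joins the ribosomal subunits, had the largest rise. It was at 266, 327 and 245 CPM with UC-764864 and 158, 182 and 171 CPM with DMSO, and rose 1.64-fold (0.71 ± 0.13, adjusted p = 0.00869). The call held in each fit without 1 library (adjusted p up to 0.0444). The other tested genes of its list, which take part in scanning and start codon choice, did not pass.

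The genes of eIF2B, the exchange factor that reloads eIF2 with GTP, all had log2 fold changes above 0, as did 51.3% of all tested genes. In 5 of 5 every UC-764864 library lay above every DMSO library, which held for 19% of all tested genes. Of the 5, 3 rose, against 5.11% of all tested genes. EIF2B4 rose 1.49-fold (0.58 ± 0.12, adjusted p = 0.0159), and EIF2B5 and EIF2B3 had smaller rises, with log2 fold changes of 0.39 ± 0.11 (adjusted p = 0.042) and 0.41 ± 0.12 (adjusted p = 0.0438). Each was lost in some fit without 1 library (largest adjusted p = 0.0946, 0.177 and 0.149). EIF2B5 and EIF2B3 also did not pass without UDI0052 and UDI0056 together (0.28 and 0.27, adjusted p = 0.0854 and 0.0974). Of 5 tested genes of the eIF2 ternary complex, 0 passed (edgeR; 0 had an unadjusted p under 0.05, and DESeq2 called 0). EIF2S1, the alpha subunit of eIF2, was at 0.23 ± 0.11 (adjusted p = 0.179).

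In the cap-binding complex eIF4F and its helpers, 3 of 12 rose and 1 fell, with a median of 0.26. EIF4G1, the scaffold that bridges the cap-binding protein and eIF3, was at 839, 722 and 755 CPM with UC-764864 and 461, 617 and 396 CPM with DMSO. It rose 1.57-fold (0.65 ± 0.15, adjusted p = 0.0199). EIF4E2, a cap-binding relative of EIF4E, and EIF4G3, a second scaffold, rose as well, by log2 values of 0.44 ± 0.12 (adjusted p = 0.0333) and 0.42 ± 0.11 (adjusted p = 0.0358). EIF4E3, another relative of EIF4E, went from 24.2 ± 2.70 to 17.7 ± 1.68 CPM and fell (log2 fold change −0.45 ± 0.14, adjusted p = 0.0495). Each of these 4 was lost in some fit without 1 library, with a largest adjusted p of 0.087 to 0.25. With the GC trend of each library removed, EIF4E3 was at −0.064 and did not pass (adjusted p = 0.631), and EIF4E2 did not pass without UDI0052 and UDI0056 (0.31, adjusted p = 0.0698). Of 4 eIF4E-binding repressors 1 rose, EIF4ENIF1, a nuclear shuttling protein, by 0.61 ± 0.14 (adjusted p = 0.0207, up to 0.103 without 1 library).

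Among 6 genes of eIF2 alpha kinases and phosphatase subunits 0 passed (edgeR; 1 had an unadjusted p under 0.05, and DESeq2 called 1). EIF2AK1, the heme-regulated kinase, was at 0.32 ± 0.11 (adjusted p = 0.0659). Among 5 tested genes of ribosome recycling and of the large subunit 0 passed (edgeR; 0 with an unadjusted p under 0.05, and DESeq2 called 0), with EIF5A2, a relative of the elongation factor EIF5A, at −0.49 ± 0.26 (adjusted p = 0.213). Of 8 tested genes of elongation and termination 1 fell. EEF1E1, a scaffold protein of the tRNA synthetase complex, went from 32.0 ± 14.8 to 12.2 ± 2.42 CPM (−1.39 ± 0.27, adjusted p = 0.011). Its DMSO values were 24.6, 22.5 and 49.0 CPM, the highest in UDI0056.

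EIF1AX, EIF2S3 and MCTS1 lie in the rows at 0 in UDI0055 and were fitted without that library, on 14186 genes. EIF1AX, a scanning factor, was at 65.6, 85.8 and 70.2 CPM with UC-764864 and 89.6 and 132 CPM in UDI0054 and UDI0056 (−0.59 ± 0.17, edgeR adjusted p = 0.0265). MCTS1, a recycling factor, fell too (−0.43 ± 0.13, adjusted p = 0.0333), and EIF2S3, the gamma subunit of eIF2, was at 0.11 ± 0.11 (adjusted p = 0.509). For DMSO these values rest on UDI0054 and UDI0056 alone. On the rows held by all libraries, leaving out UDI0055 gave 1525 higher and 1729 lower calls, against 690 and 1097 with it. No fit of EIF1AX, EIF2S3 and MCTS1 with another library left out or with the GC trend removed is given here.

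**Figure D5:**
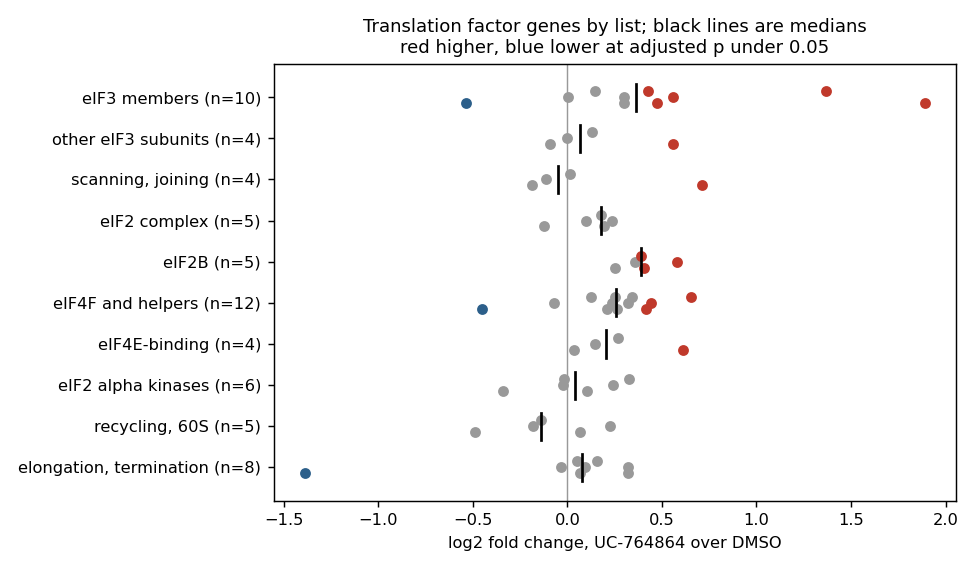
Log2 fold change of each tested translation factor gene by list, with black lines at the medians and calls coloured red (higher) or blue (lower). The 5 eIF2B genes all lie above 0, and EIF5B and EIF4G1 are the highest points outside eIF3.

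The COP9 signalosome is a protease complex whose ring is built from PCI and MPN proteins like that of eIF3. Of its 9 genes, 0 rose and 1 fell by edgeR, with a median of 0.19 (4 had an unadjusted p under 0.05 in either direction, and DESeq2 called 2). COPS2, a PCI subunit, went from 153 ± 38.6 to 93.0 ± 15.0 CPM (−0.72 ± 0.18, adjusted p = 0.0241, lost in some fit without 1 library with adjusted p up to 0.105). With the GC trend removed it was at −0.042 and did not pass (adjusted p = 0.653). JUN and BTG1, 2 examples of genes whose mRNAs are known to be bound by eIF3, both fell, where 8.13% of all tested genes did. These 2 are the whole of their list and do not stand for all mRNAs that eIF3 binds. JUN, a transcription factor of the AP-1 family, was at 22.0, 18.3 and 17.6 CPM with UC-764864 and 44.9, 38.0 and 43.0 CPM with DMSO and fell 2.17-fold (−1.12 ± 0.13, adjusted p = 0.00186). BTG1, an antiproliferative gene, fell to 69.1 ± 5.44 CPM from 91.1 ± 6.02 (−0.40 ± 0.12, adjusted p = 0.0427, up to 0.245 without 1 library). With the GC trend removed BTG1 was at −0.12 and did not pass (adjusted p = 0.286). These are levels of RNA, and translation was not measured here.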

How the data were processed

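Poly(A) RNA of 6 MOLM-13 libraries was read as paired ends, per the labels' protocols. The deposited table gives each gene's raw read count in whole numbers; a second one names the treatment of each column. FastQC 0.11.7, HISAT2 2.0.5, featureCounts 1.5.2 and GRCh37 are named, without roles, in the submitters' processing notes. The annotation release, the strand setting and the handling of shared reads: not given in the sources used here.

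Differences were fitted by edgeR 4.0.16 under R 4.3.3: filterByExpr, TMM factors (0.978 to 1.03), glmQLFit and glmQLFTest with 1 term, treatment, Benjamini-Hochberg over 13490 genes, threshold 0.05. SE is |log2 fold change| over √F. DESeq2 1.42.0 was an alternative. The 2 unbroken runs of rows at 0 in UDI0055 (115 and 3684 rows) were set aside as missing. Pairs of libraries differed by a chi-square of at least 4.40 per degree of freedom, so all 6 were kept. The fit and sequence counts were tested on simulated data or against a second method. Sequences, lengths and GC come from GENCODE release 29, with 1 principal transcript per gene, matched by symbol (86.3% of tested genes for GC). Coordinates are not printed, because the builds differ.

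Named genes are the eIF3 genes, from each other list up to 4 called genes in order of p or the 1 with the smallest p, and the 5 most like EIF3C. Members and lists were chosen with earlier results of these data known.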

Additional observations from a re-analysis of the deposited data

How the results depend on the processing

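Of the 10 eIF3 genes, 5 were called higher and 1 lower, and 8 higher and 2 lower among the other translation factors; leaving out 1 library at a time gave 2 to 6 and 0 to 1, and 1 to 15 and 1 to 2. Over all genes, 690 higher and 1097 lower became 62 to 1525 and 278 to 1729, the lowest without UDI0051 and the highest without UDI0055. In the same fits the summed EIF3C and EIF3CL ran from 1.23 to 1.54 (log2), and it was 1.07 without both UDI0052 and UDI0056; the difference in the EIF3CL share ran from −2.26 (without UDI0053) to 8.61 percentage points. With all rows as deposited, zeros of UDI0055 included, 22 genes passed as higher and 125 as lower, while 0 of the 10 and 0 of the lists passed in either direction (edgeR; 7 and 17 had an unadjusted p under 0.05, against 8 and 19 as reported). The lists had 5 higher calls without TMM factors and 5 without both UDI0052 and UDI0056. Without the low-count filter 1676 genes were lower. With EIF3C and EIF3CL summed, 4 of the eIF3 genes were higher, the summed pair among them, and 1 lower. With the GC trend removed, 2317 genes and 18 of the lists were higher, 6 of the 10 were higher and 0 lower, EIF3M turned to 0.23 and EIF5A2 to 0.15. Without TMM factors 28.6% of all calls were rises, against 38.6% as reported.

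EIF3H and EIF3J, both at 0.00, changed sign: to −0.017 and −0.018 with RLE factors, −0.044 and −0.045 without TMM factors, −0.017 and −0.018 by DESeq2, −0.0082 and −0.0082 without the filter, −0.021 and −0.022 with all rows, −0.065 and −0.030 without UDI0052 and UDI0056, and −0.0030 and −0.0045 over genes with a GC value. Leaving out 1 library gave −0.092 to 0.046 and −0.12 to 0.086. Of 478 values of 32 single genes under alternatives, 352 kept direction and side of the threshold, 93 no longer passed and 11 newly passed. The causes were not tested. The uncorrected fit over genes with a GC value, and the fit without UDI0055 on all rows for EIF1AX, EIF2S3 and MCTS1, were chosen after seeing the data. No paired analysis was possible because the count columns carry no replicate number. A count of 3 limits detection to 0.123 to 0.198 CPM, which matters for EIF3CL alone among the 10, with as few as 15 counts.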
